A study of Mus musculus with 4 samples.

Results

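Ribosomal protein RNAs were measured in the mouse embryo fibroblast line C3H10T1/2 on 4 one-colour Agilent arrays. All 4 samples were cells already transformed in culture with 3MC (3-methylcholanthrene, a polycyclic hydrocarbon carcinogen, 2.5 µg/ml for 2 days) and then TPA (a phorbol ester tumour promoter, 100 ng/ml for 2 weeks), followed by 4 weeks in plain medium. The untreated group (2 arrays) was these transformed cells with no further agent, and the DEM group (2 arrays) was the same transformed cells exposed to 0.25 mM DEM, diethyl maleate, which binds and depletes glutathione. No untransformed cells are among the 4 samples, so the comparison concerns DEM in transformed cells alone. The genes were chosen by symbol in the array files: Rpl, Rps, Mrpl or Mrps followed by a number, or Rpsa, Rplp0, Rplp1 or Rplp2, leaving out the Rps6k kinases and pseudogene names. This gave 161 genes of the 50090 gene names on the array, 86 for the cytosolic ribosome and 75 for the mitochondrial one, carried by 244 probes. Of these, 82 cytosolic and all 75 mitochondrial genes had a probe well above background on at least 2 arrays and were tested among 24788 genes.

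A ribosome is built of RNA and many proteins in a small subunit, which reads the mRNA, and a large subunit, which joins the amino acids. Mammalian cells have separate cytosolic and mitochondrial ribosomes. The proteins of both are encoded in the nucleus, but those of the mitochondrial ribosome are imported and serve the few respiratory chain proteins made inside the organelle. Most mRNAs of cytosolic ribosomal proteins begin with a C followed by a run of pyrimidines, the 5′ terminal oligopyrimidine (TOP) tract, through which mTOR signalling and the RNA-binding protein LARP1 control their translation and stability. RNA level and translation of such mRNAs can therefore differ, and the arrays measured RNA level alone.

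Ribosomal protein RNAs of both kinds differed little between the groups, by under 2-fold for all but 2 of the 157 genes tested. Of the 82 cytosolic genes, 12 were higher and 2 lower at an adjusted p under 0.05 (limma, adjusted over all 24788 genes), against 15.4% higher and 11.7% lower among all genes tested. The higher share, 14.6%, was near that background, and the lower share was 2.44%. However, 71 of these genes were in the brightest 10% of the genes tested. There 26.6% of all genes were higher and 3.31% lower. Of the 75 mitochondrial genes, 12 were higher, or 16.0%, and 1 was lower, or 1.33%. A change of at least 2-fold that passed the test was seen in 18.4% of all genes, but in only 1 gene of each class, Rps19bp1 and Mrpl40. Rps19bp1 entered by its symbol alone: its product binds the ribosomal protein Rps19 and the deacetylase SIRT1 and is not a subunit of the ribosome. Without it, 11 of 81 cytosolic genes were higher and no change reached 2-fold. The calls depended on the processing. The cytosolic balance turned round after quantile normalization, to 3 higher and 11 lower genes, and after cyclic loess normalization, to 5 higher and 11 lower, while the mitochondrial count fell to 3 higher under either. With scaling to spike-in RNA 0 genes of either ribosome passed (361 higher and 865 lower among all genes), and without the variance trend 3 of each were higher and 0 lower.

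The median log2 change was 0.14 for the cytosolic genes (quartiles -0.09 and 0.35) and 0.30 for the mitochondrial genes (0.10 and 0.58), against 0.16 for all genes tested (-0.34 and 0.57). A positive change was found in 55 of 82 cytosolic and 58 of 75 mitochondrial genes. Both DEM arrays lay above both untreated arrays for 36 cytosolic genes (43.9%) and 47 mitochondrial genes (62.7%), where all genes gave 42.4%. Both lay below for 11 cytosolic genes (13.4%) and 4 mitochondrial genes (5.33%), where all genes gave 26%. The sign of the cytosolic median depended on the scaling: it was -0.19 after both quantile and cyclic loess normalization, which placed the median of all genes at 0.07 and 0.01, whereas the mitochondrial median stayed positive at 0.13 and 0.09.

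**Figure D1:**
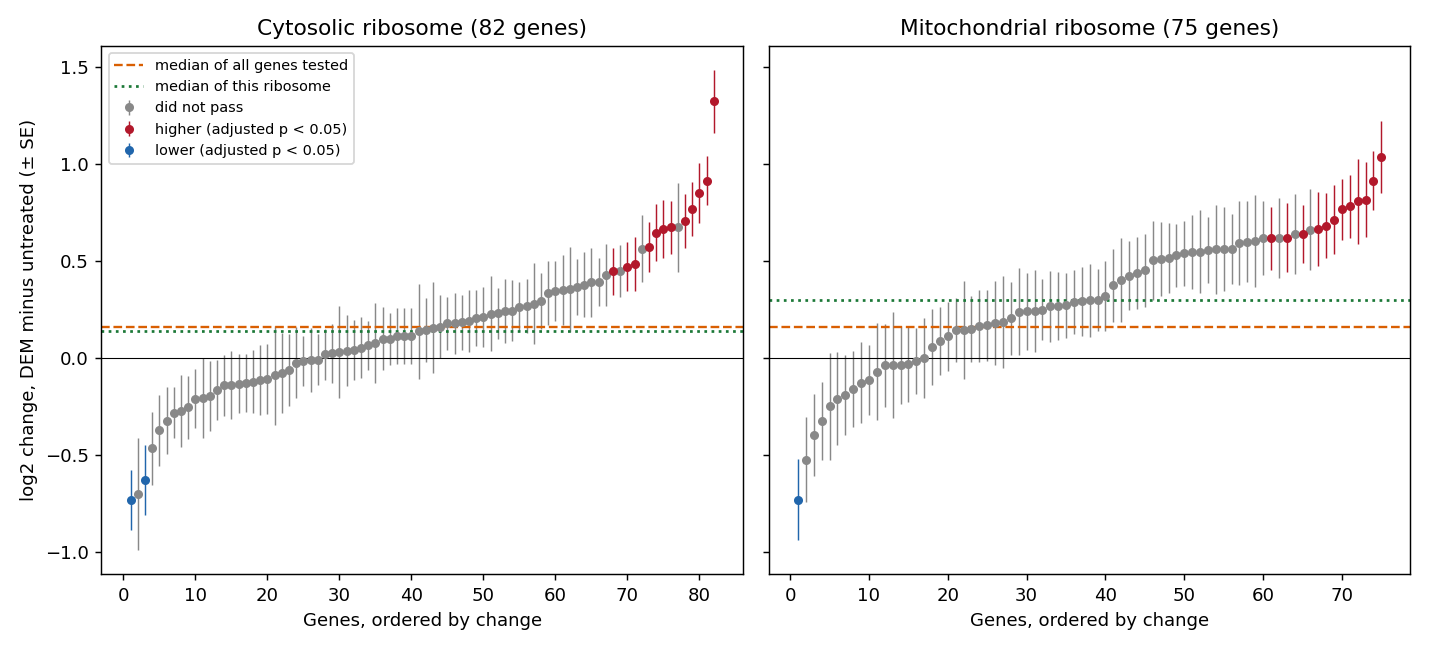
Change of each tested ribosomal protein gene, ordered from lowest to highest within the cytosolic (left, 82 genes) and mitochondrial (right, 75 genes) ribosome. The y axis is the log2 change, DEM minus untreated, with its SE; red and blue points passed the adjusted p threshold, the dashed line is the median of all genes tested (0.16) and the dotted line that of the ribosome shown (0.14 and 0.30). At this scaling 12 genes are higher in each, with 2 cytosolic and 1 mitochondrial gene lower; after quantile or cyclic loess normalization 11 cytosolic genes were lower and 3 or 5 higher.

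Levels are log2 processed signals relative to the 75th percentile of each array, which stood at a signal of 701 and 747 for the untreated samples and at 449.9 and 412 for the DEM samples. Brightness depends on the probe, so levels are compared between arrays and not between genes. Between 47.8% and 52.7% of spots were well above background. All 10 fibroblast markers listed were measured, and 5 of them (Col3a1, Pdgfrb, Pdgfra, Dcn and Col1a2) were lower with DEM; their part in the results was not tested. Of the leukocyte markers Ptprc was not well above background on any array, nor were Cdh5 (endothelial) and Cdh1 (epithelial). The dim endothelial marker Tek was well above background on only 2 arrays, the least that the filter allows. Its levels were -3.95 and -3.90 in untreated cells and -5.94 and -6.46 in DEM-exposed cells. These lie near the floor, so neither the size nor the p of its fall is used. In RNA from a whole culture, fewer cells of a kind and less RNA per cell cannot be told apart. Untreated and DEM arrays lay in different rows of the same slide, so row and treatment cannot be told apart. Whether samples of the same group were grown as separate cultures is not stated in the labels, and p-values therefore cover only the spread among these samples, technical or otherwise. Without untreated 1, only 1 cytosolic and 0 mitochondrial genes were higher and none lower, and the same counts were found without untreated 2. Without DEM 1 there were 19 higher and 2 lower cytosolic genes with 23 higher and 0 lower mitochondrial genes, and without DEM 2 these were 11, 3, 8 and 1.

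The genes of the P stalk were all higher. The stalk is the flexible arm of the large subunit to which elongation factors bind; Rplp0 anchors it and the small acidic proteins Rplp1 and Rplp2 form its arms. Rplp0 had levels of 8.42 and 8.36 in untreated cells and 9.23 and 9.37 in DEM-exposed cells. Both DEM arrays lay above both untreated arrays, by more than the distance within either pair, and the log2 change was 0.91 ± 0.13 (SE, n = 2 arrays per group), or 1.88-fold (limma adjusted p = 0.00573). Rplp2 had levels of 8.47 and 8.61 without DEM and 9.20 and 9.42 with it, a change of 0.77 ± 0.14 or 1.70-fold (limma adjusted p = 0.0129). Rplp1 went from 8.81 and 8.78 to 9.37 and 9.63, a change of 0.71 ± 0.14 or 1.63-fold (limma adjusted p = 0.0164). None of the groups overlapped for these genes, and each change was positive under all 15 other settings. The calls were less stable than the direction. Without untreated 1 the adjusted p was 0.0604 for Rplp0, 0.120 for Rplp2 and 0.118 for Rplp1, and without untreated 2 it was 0.0749, 0.0873 and 0.135. The size depended on the scaling too. After quantile normalization the changes were 0.39 for Rplp0, 0.20 for Rplp2 and 0.08 for Rplp1, and only Rplp0 passed (adjusted p = 0.0378, 0.190 and 0.616). After cyclic loess they were 0.53, 0.39 and 0.32, and Rplp1 did not pass (adjusted p = 0.0521).

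The start of the Rplp2 transcript shows the TOP tract of this gene class. The following windows run from 20 bases before the transcript start through the first 20 bases of the transcript, as listed by RefSeq for GRCm38.p6, with the C and the pyrimidines that follow it at the start in capitals. Rplp2, Rpl35 and Rpl38 are the higher genes with such a tract at the listed start, Rps6 and Rps27 carry one and did not pass, and Rplp0 and Mrpl40 are shown because they were higher without one at the listed start.
Rplp2 (chr7:141447631-141447670, plus strand): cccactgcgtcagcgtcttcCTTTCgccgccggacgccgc
Rpl35 (chr2:39005112-39005151, minus strand): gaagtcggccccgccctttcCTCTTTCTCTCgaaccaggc
Rpl38 (chr11:114668560-114668599, plus strand): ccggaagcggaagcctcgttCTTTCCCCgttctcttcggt
Rps6 (chr4:86857348-86857387, minus strand): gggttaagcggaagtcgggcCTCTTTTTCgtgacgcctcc
Rps27 (chr3:90213629-90213668, minus strand): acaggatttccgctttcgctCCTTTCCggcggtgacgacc
Rplp0 (chr5:115559447-115559486, plus strand): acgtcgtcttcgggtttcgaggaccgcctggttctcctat
Mrpl40 (chr16:18876618-18876657, minus strand): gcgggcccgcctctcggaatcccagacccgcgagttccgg

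A tract of a C and at least 4 further pyrimidines lay exactly at a listed start in 13 of the 65 cytosolic genes with a promoter in the RefSeq table (20%). It was found in 0 of 66 mitochondrial genes and in 467 of 17492 protein-coding genes (2.67%). Allowing the tract to begin within 5 bases of the listed start raised these shares to 44.6%, 24.2% and 21.5%. The listed start is a single annotated base, so a gene without a match at it may still start with a tract in these cells. Of the 13 tested cytosolic genes with the tract at the listed start, 3 were higher and 0 lower with a median log2 change of 0.21. Of the 49 others with a listed start, 7 were higher and 1 lower with a median of 0.14. These 7 include Rps19bp1, whose product is not a subunit of the ribosome.

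Apart from the stalk, Rps2 had the highest change among cytosolic ribosomal proteins. Rps2, a small subunit protein near the path by which mRNA enters, had levels of 8.03 and 8.13 in untreated cells and 8.77 and 9.09 in DEM-exposed cells. The groups did not overlap, and the change was 0.85 ± 0.15 (limma adjusted p = 0.0129). Its adjusted p was 0.107 with untreated 1 left out and 0.0877 with untreated 2 left out. Among the other cytosolic genes that passed, named after their values were seen, Rps12 changed by 0.67, Rpl12, which sits at the base of the stalk, by 0.64, and Rpl38 by 0.57. Rpl35 changed by 0.48, Rps20 by 0.47 and Rpl19 by 0.44. None of these 6 passed after quantile normalization, with changes of 0.21 for Rps12, 0.25 for Rpl12, 0.12 for Rpl38, 0.23 for Rpl35, -0.10 for Rps20 and 0.05 for Rpl19, and only Rps12 passed after cyclic loess. None passed without untreated 1 or without untreated 2. By subunit, 7 of 49 large subunit genes were higher and 2 lower with a median of 0.11, and 4 of 32 small subunit genes were higher and 0 lower with a median of 0.18. The brightest probes of the cytosolic class were those of Rplp1, Rps23 and Rps18. Rps23, at the decoding centre, changed by 0.45 ± 0.13 (limma adjusted p = 0.0561) and Rps18 by 0.39 ± 0.13 (limma adjusted p = 0.0672), and neither passed. After quantile normalization their changes were -0.15 and -0.20.

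Rpl3 and Rpl4 were lower. Both are large subunit proteins with long extensions into the core, Rpl3 towards the centre where peptide bonds form and Rpl4 into the tunnel through which the new chain leaves. Rpl3 had levels of 7.34 and 7.61 in untreated cells and 6.70 and 6.78 in DEM-exposed cells, a change of -0.73 ± 0.15 or 1.66-fold lower (limma adjusted p = 0.0194). Rpl4 had levels of 4.59 and 4.56 without DEM and 4.12 and 3.77 with it, a change of -0.63 ± 0.18 (limma adjusted p = 0.0493). The DEM arrays were below the untreated arrays for both genes, and the change was negative under all 15 other settings. Rpl3 was below the threshold under 11 of these. Its adjusted p was 0.0754 with untreated 1 left out and 0.165 with untreated 2 left out. Rpl4 lay at the threshold and did not pass without untreated 1, untreated 2 or DEM 2 (adjusted p = 0.216, 0.213 and 0.0914). The 3 other cytosolic genes with the lowest changes, Rpl22l1, Rpl31 (-0.47 ± 0.19) and Rpl10a (-0.37 ± 0.18), did not pass (limma adjusted p = 0.123, 0.117 and 0.176).

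The proteins that link the ribosome to p53 showed no change that passed. Rpl5 and Rpl11 form a complex with the 5S ribosomal RNA which, when free of the ribosome, binds Mdm2, the ligase that degrades p53, and Rpl23 binds Mdm2 as well. Rpl5 had levels of 7.98 and 8.08 in untreated cells and 8.01 and 8.01 in DEM-exposed cells. The groups overlapped, with a change of -0.02 ± 0.13 (limma adjusted p = 0.932). Rpl11 and Rpl23 each changed by 0.11 with an SE of 0.14 (limma adjusted p = 0.602 and 0.596). The direction of Rpl11 and Rpl23 depended on the scaling, since after quantile normalization their changes were -0.29 and -0.28. Rpl5 kept its direction there but was further from 0, at -0.42, and passed (limma adjusted p = 0.0384). It also passed after cyclic loess (limma adjusted p = 0.0495). Rps6, the small subunit protein phosphorylated by the S6 kinases, had levels of 6.47 and 6.51 without DEM and 6.40 and 6.17 with it. Both DEM arrays lay below, but the change of -0.21 ± 0.15 did not pass (limma adjusted p = 0.337). Rpsa, a small subunit protein also known as a laminin receptor, had levels of 5.01 and 5.04 without DEM and 5.67 and 5.09 with it. Only DEM 1 stood well above the others, and the change of 0.35 ± 0.22 did not pass (limma adjusted p = 0.273). A dimmer probe of the gene gave 1.12, and with the mean of its probes the change was 0.74 and passed (adjusted p = 0.0313), as did the change without DEM 2, 0.64 (adjusted p = 0.0270).

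Among paralogues, duplicate genes for a ribosomal protein with their own expression, Rps27l was the one that passed. Rps27l, a paralogue of Rps27 and a p53 target gene, had levels of 5.91 and 5.98 in untreated cells and 6.50 and 6.71 in DEM-exposed cells. Its groups did not overlap and it rose by 0.66 ± 0.15 (limma adjusted p = 0.0242), while Rps27 changed by 0.27 ± 0.14 (limma adjusted p = 0.208). The Rps27l call was lost without untreated 1 and untreated 2 (adjusted p = 0.159 and 0.140) and was just lost after quantile normalization (adjusted p = 0.0549). Rpl22l1, a paralogue of Rpl22, had levels of 5.13 and 4.85 without DEM and 3.88 and 4.70 with it. The DEM arrays were lower but far apart, and the change of -0.70 ± 0.29 did not pass. Rpl22 itself had levels of 6.37 and 6.32 without DEM and 6.72 and 7.10 with it, a change of 0.56 ± 0.17 (limma adjusted p = 0.0596), but its dimmer second probe changed by -1.10. The Rpl22 result therefore depends on the probe. Rpl36al changed by 0.43 ± 0.16 (limma adjusted p = 0.0976) and Rpl7l1 by 0.15 ± 0.23 (limma adjusted p = 0.656). Rpl10l and Rpl39l, known for expression in testis, and Rpl3l, known for expression in striated muscle, were not well above background on any array, and Rps4y2 (now Rps4l) was on 1.

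Rps19bp1 had the highest change of all the genes chosen by symbol. Its levels were 3.52 and 3.31 in untreated cells and 4.74 and 4.73 in DEM-exposed cells. The DEM arrays agreed closely and lay well above, and the change was 1.32 ± 0.16 or 2.50-fold (limma adjusted p = 0.00420). A second probe of the gene gave 1.17. The call was kept without each array in turn and was lost under 1 setting, scaling to spike-in RNA. Some ribosomal proteins that the symbol rule misses were looked at beside the rest. In the cytosolic ribosome these were Gnb2l1 (Rack1, a signalling scaffold on the small subunit) with a change of 0.19 and Fau (a ubiquitin-like protein fused to Rps30) with 0.01, and neither passed. Fau was at -0.45 after quantile normalization and then passed as lower (adjusted p = 0.0273).

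**Figure D2:**
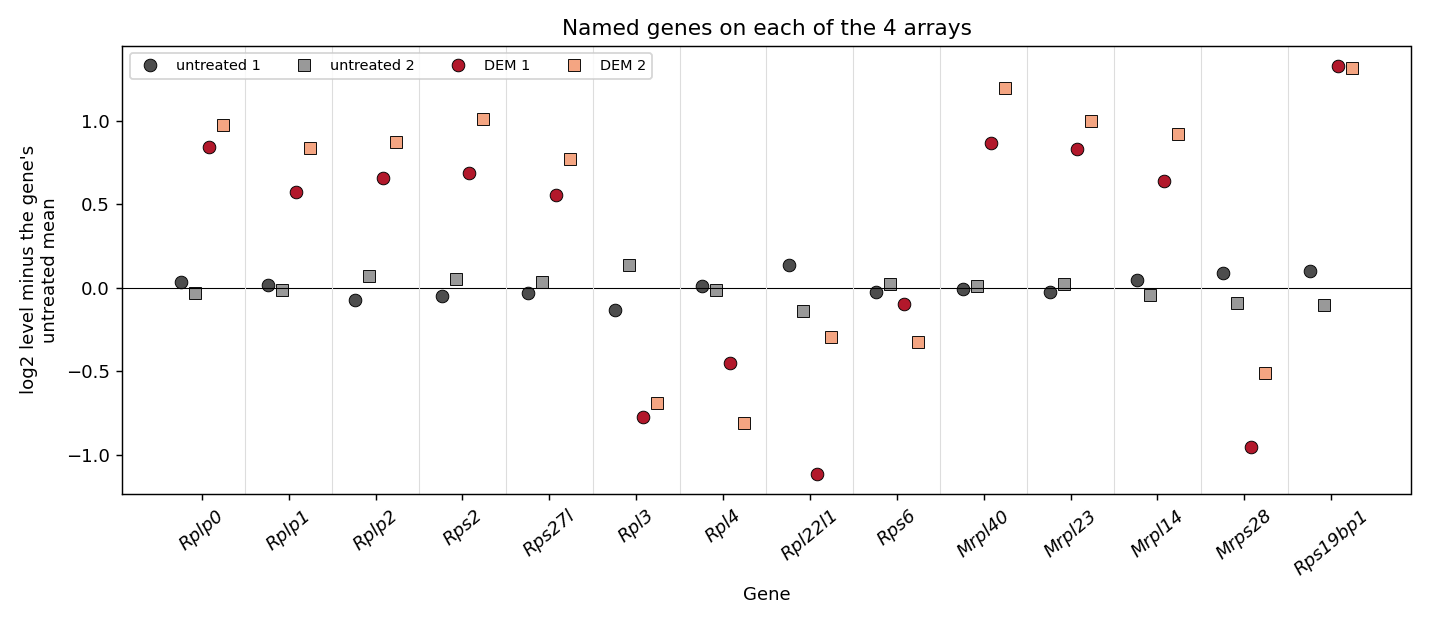
Named genes on each of the 4 arrays. The y axis is the log2 level minus the mean of the gene's untreated arrays, with 1 point per array. The DEM points of Rplp0, Rplp1, Rplp2, Rps2, Rps27l, Mrpl40, Mrpl23, Mrpl14 and Rps19bp1 lie above their untreated points, those of Rpl3, Rpl4 and Mrps28 below, and those of Rpl22l1 lie furthest apart.

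In the mitochondrial ribosome 10 of 46 large subunit genes (21.7%) and 2 of 29 small subunit genes (6.90%) were higher, against 15.4% of all genes, and the difference between the subunits was not tested. Mrpl40, a large subunit protein found in mitochondrial but not bacterial ribosomes, had levels of 2.84 and 2.86 in untreated cells and 3.72 and 4.05 in DEM-exposed cells. The untreated arrays were nearly equal and the DEM arrays lay above, with a change of 1.03 ± 0.18 or 2.05-fold (limma adjusted p = 0.0121), and the other probes of the gene changed by 0.67 and 0.79. Mrpl23, whose bacterial homologue lies at the exit of the peptide tunnel, had levels of 4.58 and 4.62 without DEM and 5.43 and 5.60 with it. Its groups were well apart, and the change was 0.91 ± 0.15 or 1.88-fold (limma adjusted p = 0.0101). Without untreated 1 the adjusted p was 0.0847 for both genes, and without untreated 2 it was 0.0853 for Mrpl40 and 0.0801 for Mrpl23.

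Mrpl20, Mrpl35 and Mrpl14, all large subunit proteins with bacterial homologues, were the next highest. Mrpl20 had levels of 4.84 and 4.75 without DEM and 5.38 and 5.83 with it, a change of 0.81 ± 0.19 (limma adjusted p = 0.0288). Mrpl35 had levels of 2.63 and 2.94 without DEM and 3.38 and 3.80 with it, a change of 0.81 ± 0.22 (limma adjusted p = 0.0423). Mrpl14 had levels of 5.42 and 5.33 without DEM and 6.01 and 6.29 with it, a change of 0.78 ± 0.16 (limma adjusted p = 0.0194). The groups were apart for each gene, with DEM 2 above DEM 1 in all of them. None passed without untreated 1 (adjusted p = 0.126, 0.225 and 0.106) or untreated 2 (adjusted p = 0.164, 0.116 and 0.139), and Mrpl35 did not without DEM 2 (adjusted p = 0.0757). The other 7 that passed, named after their values were seen, were Mrps6 (0.76), Mrps33 (0.71), Mrpl49 (0.68), Mrpl1 (0.66), Mrpl43 (0.64), Mrpl52 (0.62) and Mrpl38 (0.62). Of the 12 higher genes, Mrpl40, Mrpl23 and Mrpl14 passed after quantile and also after cyclic loess normalization and the others under neither. Genes with a bacterial homologue (46) had a median change of 0.29 with 6 higher and 0 lower, and the 29 specific to mitochondria a median of 0.32 with 6 higher and 1 lower.

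Mrps28, a small subunit protein, was the mitochondrial gene that fell. Its levels were 4.03 and 3.85 in untreated cells and 2.98 and 3.43 in DEM-exposed cells, with no overlap and a change of -0.73 ± 0.21 (limma adjusted p = 0.0473). It stayed negative under all 15 other settings but did not pass without untreated 1, untreated 2 or DEM 1 (adjusted p = 0.234, 0.157 and 0.0873). Mrps36 changed by -0.53 ± 0.22 (limma adjusted p = 0.127); its protein has been assigned to the alpha-ketoglutarate dehydrogenase complex rather than the ribosome. Mrps14 (-0.40), Mrpl4 (-0.33) and Mrps11 (-0.25) were the next lowest, and none passed. Mrpl12, the mitochondrial counterpart of the bacterial stalk protein, had levels of 4.39 and 4.58 without DEM and 4.92 and 5.16 with it, a change of 0.55 ± 0.17 that did not pass (limma adjusted p = 0.0592). The brightest mitochondrial probes were those of Mrpl33 (0.37 ± 0.19), Mrpl28 (0.20 ± 0.19) and Mrpl14, and the first of these did not pass (limma adjusted p = 0.189), nor did Mrpl28 (limma adjusted p = 0.460). Of the mitochondrial ribosomal proteins outside the symbol rule, Chchd1 rose by 1.02 ± 0.19 from 5.37 and 4.96 to 6.10 and 6.26 (limma adjusted p = 0.0138). Without untreated 2 its adjusted p was 0.101. Ptcd3 (0.44), Dap3 (0.38), Gadd45gip1 (0.21), Aurkaip1 (0.07) and Ict1 (0.04) did not pass.

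Mrps18a, Mrps18b and Mrps18c are related genes that each encode a version of the same bacterial small subunit protein. They changed by similar amounts, 0.51 ± 0.19, 0.62 ± 0.21 and 0.55 ± 0.19, and in each the DEM arrays lay above the untreated arrays, but none passed (limma adjusted p = 0.0989, 0.0739 and 0.0818). The promoters of all 3 hold CCGGAAG on one strand or the other, the core recognised by ETS family factors such as GABP, a regulator of respiratory chain and mitochondrial genes. The matches before the listed start in Mrps18a and Mrps18c, and that in the promoter of Rplp2, are shown with 15 bases on either side and the motif in capitals.
Mrps18a (chr17:46110963-46110999, plus strand, motif ending 19 bases before the start): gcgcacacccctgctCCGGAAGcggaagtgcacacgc
Mrps18c (chr5:100798588-100798624, plus strand, motif on the other strand): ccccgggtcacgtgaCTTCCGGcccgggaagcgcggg
Rplp2 (chr7:141447528-141447564, plus strand, motif on the other strand): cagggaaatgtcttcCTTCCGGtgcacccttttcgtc

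In the 300 bases from 250 before to 50 after the listed start, searched on both strands, CCGGAAG was found in 26 of 65 cytosolic genes (40%) and 24 of 66 mitochondrial genes (36.4%), against 12.9% of 17492 protein-coding genes. Mitochondrial genes with the motif had a median change of 0.35 with 3 of 24 higher, and those without it 0.30 with 8 of 42 higher. Cytosolic genes with it had a median of 0.14 with 6 of 25 tested genes higher, and those without it 0.15 with 4 of 37 higher and 1 lower. These 4 also include Rps19bp1. The letters TGACNNNGC, the core of the antioxidant response element bound by NRF2, were in 20% of cytosolic, 19.7% of mitochondrial and 14.8% of all protein-coding promoters. The YY1 letters AAGATGGC were in 9.23%, 16.7% and 3.57%. Matches of different motifs were counted separately and may share bases. A match is a stretch of letters and not a measured binding site.

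Set against each other on the same array, the mitochondrial genes stood higher relative to the cytosolic genes on both DEM arrays. For each array the deviation of every gene from its own mean over the 4 arrays was taken. The cytosolic median was -0.13 and -0.03 in untreated cells and -0.02 and 0.17 in DEM-exposed cells, so that untreated 2 and DEM 1 were nearly equal. The mitochondrial median was -0.19 and -0.14 in untreated cells and 0.02 and 0.27 in DEM-exposed cells, with the groups apart. The gap, mitochondrial minus cytosolic, was -0.07 and -0.11 in untreated cells and 0.05 and 0.10 in DEM-exposed cells, with means of -0.09 ± 0.03 and 0.07 ± 0.04 (SD, n = 2). The groups did not overlap, but 2 arrays against 2 cannot give an exact two-sided permutation p below 0.333. A scaling that shifts a whole array leaves this gap as it is. Taken from the median levels themselves, the measure first planned, the gap was -4.67 and -4.56 in untreated cells. In DEM-exposed cells it was -4.20 and -4.37 by that measure. The difference of group means was 0.33 by median levels and 0.16 by deviations. The difference between the median changes of the ribosomes, 0.16, was 0.32 after quantile and 0.28 after cyclic loess normalization, and between 0.13 and 0.22 without each array in turn. The changes of single genes ran from -0.73 to 1.32 in the cytosolic and from -0.73 to 1.03 in the mitochondrial class.

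**Figure D3:**
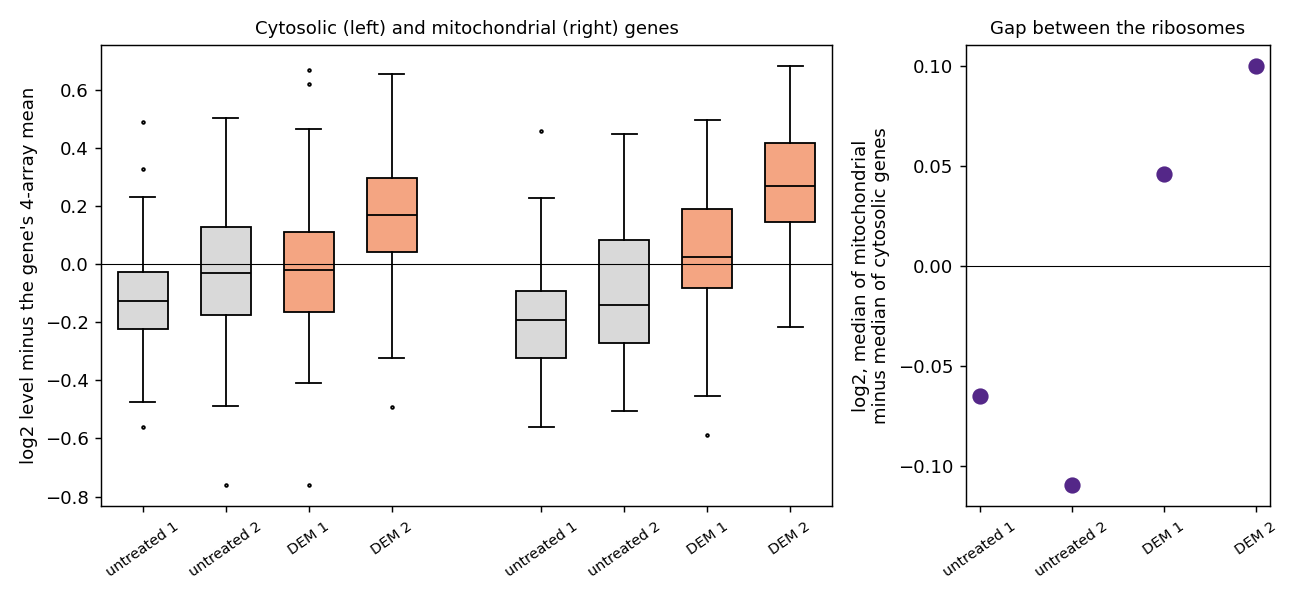
Left, the log2 level of each tested gene minus its mean over the 4 arrays, as a box per array (median, quartiles and whiskers to the furthest point within 1.5 box lengths) for the cytosolic and mitochondrial genes, with untreated arrays grey and DEM arrays orange. Right, the median of the mitochondrial genes minus that of the cytosolic genes on each array, in the same log2 deviation. It is below 0 on both untreated arrays and above 0 on both DEM arrays. Each gene is centred on its own mean, so values on both sides of 0 are largely built in.

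The cytosolic genes lay at the bright end of the arrays, where the changes of all genes also differed from the rest. Of the 82 cytosolic genes, 71 were in the brightest 10% of the genes tested, against 11 of the 75 mitochondrial genes. Among those bright genes the median change of all 2479 genes was 0.28, and 26.6% were higher and 3.31% lower. The 71 cytosolic genes there had a median of 0.14 with 11 higher and 1 lower. The 11 mitochondrial genes there had a median of 0.64 with 6 higher, but most mitochondrial genes were dimmer. In the next brightest 10%, 3 of 22 mitochondrial genes were higher with a median of 0.29, against 23.1% and 0.25 among all genes there. In the 10% below, it was 2 of 21 with 0.42, against 21.0% and 0.22. In the 10% below that, it was 1 of 15 with 0.16, against 17.2% and 0.15. No mitochondrial gene dimmer than these was higher. The part of brightness in the difference between the ribosomes was not tested. The levels of the tested members also differed less within a group than across groups. The SD of the difference between arrays was 0.184 for the untreated pair and 0.241 for the DEM pair, and 0.359 to 0.429 across groups. For all genes tested the same SDs were 0.516, 0.631 and 1.11 to 1.20.

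Other probes of the same genes mostly gave a lower change, counting its sign. Of the 157 genes, 60 had more than 1 kept probe, and in 38 all probes had the same sign. The 79 other probes had a change below that of the brightest probe in 57 instances, and the median difference over all 79 was -0.17. For the cytosolic genes the median change of the 46 other probes was -0.05, and for the mitochondrial genes that of the 33 others was 0.21. All probes had the same sign in 5 of 5 cytosolic and 5 of 7 mitochondrial genes that passed, the exceptions being Mrpl49 (other probes -0.18 and 0.22) and Mrpl1 (0.40 and -0.15). Second probes of Rplp0 and Rps2 changed by 0.64 and 0.53, that of Rpl31 by -0.69 and that of Mrps6 by 0.77. A second probe named Rpl12 carries the accession of a small nucleolar RNA in its place. Rpl12 is nevertheless counted among the 5 cytosolic genes whose probes had the same sign. So is Rps19bp1, whose product is not a subunit of the ribosome. Ribosomal protein genes have many processed copies in the genome: the chosen probe lists predicted transcripts in 54 of 82 cytosolic and 5 of 75 mitochondrial genes, so the signal of a cytosolic probe may include RNA from copies.

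**Figure D4:**
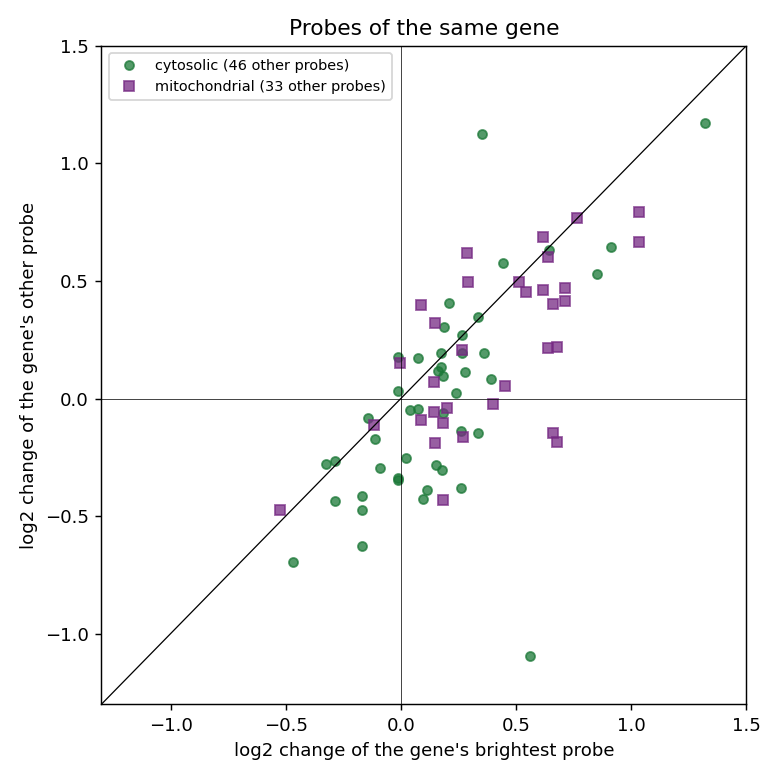
Log2 change with DEM of each further probe of a ribosomal protein gene (y axis) against that of the brightest probe of the gene (x axis), for 46 cytosolic and 33 mitochondrial probes. The diagonal marks equal changes; 57 of 79 points lie below it, and the point furthest below is the second probe of Rpl22 at -1.10.

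Genes that act with the ribosome were counted in the same way, against the 15.4% higher and 11.7% lower of all genes. Of 37 cytosolic initiation factors and related genes tested, 14 were higher (37.8%) and 1 lower (2.70%) with a median of 0.33. The median level of this list was 4.54, in the second brightest 10% of genes. In that 10%, 23.1% of all genes were higher and 7.83% lower with a median of 0.25. The part of brightness in these counts was not tested. Eif5, which makes eIF2 hydrolyse its GTP at the start codon, had levels of 3.84 and 3.93 in untreated cells and 5.94 and 5.32 in DEM-exposed cells, a change of 1.74 ± 0.23 (limma adjusted p = 0.00519). Eif1, which guards start codon choice, rose by 1.13 ± 0.15 (limma adjusted p = 0.00494), and Eif3j, a loosely held subunit of eIF3, by 1.36 ± 0.19 (limma adjusted p = 0.00576). DEM arrays lay above untreated arrays for each. Eif1 did not pass without untreated 1 (adjusted p = 0.0542), nor Eif3j without untreated 2 (adjusted p = 0.0567). The count of higher initiation genes was 9 after quantile and 8 after cyclic loess normalization, 2 without untreated 1 and 2 without untreated 2. Of 10 elongation and termination factors and related genes, 2 were higher and 2 lower, or 20% each. Eef2k, the kinase that inhibits elongation factor eEF2, fell by 1.43 and Eef2 itself by 0.56 on the log2 scale (limma adjusted p = 0.00626 and 0.0371). Eef1d rose by 0.62 (limma adjusted p = 0.0416). The other higher gene, named after its value was seen, was Eef1e1 with 0.92 (limma adjusted p = 0.0472). Neither Eef2k nor Eef2 passed without untreated 1 (adjusted p = 0.0529 and 0.136) or without untreated 2 (adjusted p = 0.0781 and 0.259). Eef1d did not pass after quantile or cyclic loess normalization, where 0 genes of this list were higher and 3 were lower.

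Of 16 mRNAs with a TOP tract that encode no ribosomal protein, 3 were higher and 3 lower, or 18.8% each, with a median of 0.13. The list shares genes with those above. Among the genes that passed, Pabpc1 and Eef1d (higher) and Eef2 and Eif3f (lower) were already counted there. Pabpc1, the poly(A)-binding protein, rose by 1.03 ± 0.15, Nap1l1, a histone chaperone, by 0.91 ± 0.15, and Hnrnpa1, a splicing factor, fell by 1.15 (limma adjusted p = 0.00705, 0.00961 and 0.00951). Pabpc1 and Nap1l1 did not pass without untreated 1 (adjusted p = 0.0706 and 0.0625) or untreated 2 (adjusted p = 0.0565 and 0.0937). Hnrnpa1 did not pass without untreated 1 (adjusted p = 0.0782), and with the mean of its probes it changed by -0.45 (adjusted p = 0.185). The list counted 2 higher and 6 lower genes after quantile and also after cyclic loess normalization. Among 8 genes that control translation or ribosome synthesis, 3 were higher (37.5%) and 1 lower (12.5%). Myc, a transcription factor that drives ribosome synthesis, had levels of 2.16 and 1.54 in untreated cells and 4.44 and 3.80 in DEM-exposed cells, a change of 2.27 ± 0.30 or 4.81-fold (limma adjusted p = 0.00533). Eif4ebp1, the mTOR-regulated repressor of cap-dependent initiation, rose by 1.50 ± 0.18 and Larp1 by 1.10 ± 0.17 (limma adjusted p = 0.00404 and 0.00838). Rps6kb2, an S6 kinase named after its value was seen, fell by 0.89 (limma adjusted p = 0.0371). The Myc and Eif4ebp1 calls were kept without each array in turn, while Larp1 did not pass without untreated 1 or untreated 2 (adjusted p = 0.0619 and 0.0743). Nor did Rps6kb2 (adjusted p = 0.120 and 0.272), which also missed the threshold with the mean of its probes (change -0.69, adjusted p = 0.0732).

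Of 18 genes for mitochondrial translation and transcription outside the ribosome, 2 were higher (11.1%) and 0 lower with a median of 0.35. Mrrf, the mitochondrial ribosome recycling factor, had levels of 2.97 and 2.91 in untreated cells and 4.23 and 4.12 in DEM-exposed cells. The groups were far apart, and the change was 1.24 ± 0.16 or 2.36-fold (limma adjusted p = 0.00480), with an adjusted p of 0.0531 without untreated 2. Gfm1, a mitochondrial elongation factor, rose by 0.75 ± 0.21 (limma adjusted p = 0.0469), a call lost without untreated 1, untreated 2 or DEM 1 (adjusted p = 0.168, 0.241 and 0.0841). Mtg1, a GTPase that assists assembly of the large subunit, changed by 0.55 ± 0.17 and did not pass (limma adjusted p = 0.0590).

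**Figure D5:**
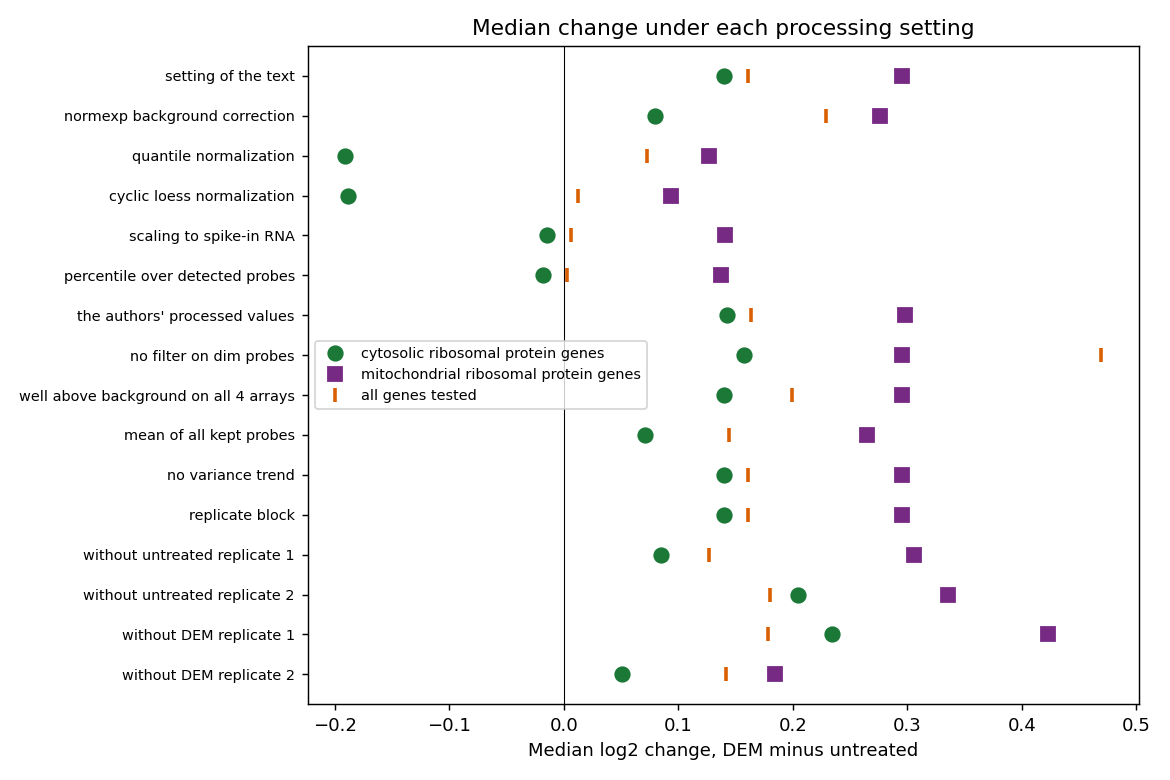
Median log2 change, DEM minus untreated, of the cytosolic genes (circles), the mitochondrial genes (squares) and all genes tested (bars) under the setting of the text and 15 others. The mitochondrial median exceeds the cytosolic median in every row, and the cytosolic median is below 0 under 4 settings, lowest after quantile and cyclic loess normalization (-0.19).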

How the data were processed

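Cy3-labelled RNA of 4 samples was measured on custom Agilent arrays of mouse transcripts, with a single sample on each. Spot intensity was read, per the file headers, by Feature Extraction 10.7.3.1, which subtracted background and marked spots well above background. The authors also deposited a table of log2 values for the series; at least 99.98% of its probes lay within 0.01 of log2 processed signal after subtraction of that array's 75th percentile, and it served as an alternative. Its scale and centring were found from the values.

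Control spots and 130 probes with outlier marks were left out, replicate spots were averaged, and each array was centred, on the log2 scale, at the 75th percentile of its non-control probes. No spot was saturated. Of 61307 probes, 31771 carried that mark on 2 or more arrays, and the brightest of each gene name was kept. Groups were compared in limma 3.58.1 (R 4.3.3, data.table, version 1.17.8) with an intensity trend and with 2 residual and 4.04 prior degrees of freedom. Two-sided p-values were adjusted by Benjamini-Hochberg over the 24788 genes. At an unadjusted p under 0.05 there were 10199 genes. The script was tested on simulated data. The precision is limited by the number of arrays. Figures were drawn with matplotlib 3.10.9.

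Symbols are those of the array files: 157 members had a probe accession with a current symbol in RefSeq, unchanged for 155. Promoter windows come from RefSeq (GRCm38.p6) and were matched by symbol for 65 cytosolic and 66 mitochondrial genes. How long DEM was applied is not given in any source used here.

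The members, lists and tests were chosen with earlier results of these data known. Genes were named by a rule: in each ribosome the 5 highest and 5 lowest changes and the 3 brightest, members below background, the P stalk, Mdm2-binding proteins, Rps6, paralogues, Rpsa, Rpl22, Rps27, Mrpl12 and the Mrps18 genes, up to 3 genes of smallest p in each pathway list, and ribosomal proteins outside the symbol rule. A gene that the rule names is not reported here. Other names, the cell type markers among them, were chosen after their values were seen. No test was made of a list as a whole. Tried as alternatives were quantile and cyclic loess normalization, normexp correction of the background (offset 50), scaling to spike-in RNA, the percentile over detected probes, the authors' values, other probe filters, the mean of probes, a fit without the variance trend, a block for the replicate number, and leaving out every array once. Over all genes tested, same-numbered arrays did not deviate together (correlation across genes of replicate 1 minus replicate 2 between the groups, 0.0833, with 2 pairs). The numbers were therefore not taken to pair the samples. However, the spike-in level was higher on both arrays numbered 2, and so were the median deviations of both ribosomes. The cytosolic median was -0.13 (untreated) and -0.02 (DEM) on arrays numbered 1, and -0.03 and 0.17 on those numbered 2. The mitochondrial median was -0.19 and 0.02 on arrays numbered 1, and -0.14 and 0.27 on those numbered 2. A shared effect of the replicate number on these genes was not tested.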

Additional observations from a re-analysis of the deposited data

How the results depend on the processing

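Over all genes, 3828 were higher and 2906 lower, against 6492 higher with normexp, 2533 higher after cyclic loess, 17404 higher with no filter on dim probes, and 361 higher and 865 lower with scaling to spike-in RNA. Cytosolic ribosomal protein genes (12 higher, 2 lower, median change 0.14) were 3 higher and 11 lower with a median of -0.19 after quantile normalization and 5 higher and 11 lower with -0.19 after cyclic loess. They were 0 higher and 0 lower with -0.015 under spike-in scaling, 7 higher with no filter, 3 higher and 0 lower without the variance trend, and 1 lower with the mean of kept probes; the percentile over detected probes gave a median of -0.018. Mitochondrial genes (12 higher, 1 lower, median 0.30) were 3 higher with 0.13 (quantile), 3 higher with 0.094 (cyclic loess), 0 higher and 0 lower with 0.14 (spike-in), 4 higher with 0.14 (percentile over detected probes) and 3 higher and 0 lower (no variance trend). The difference between the medians, 0.16, was 0.32 (quantile), 0.28 (cyclic loess), 0.20 (normexp) and 0.19 (mean of kept probes). The spike-in level relative to the 75th percentile differed between arrays of a group, 2.76 and 3.41 untreated and 2.78 and 3.70 with DEM, so it was higher on both arrays numbered 2, and scaling to it adds spread within groups; other causes were not tested.

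With the replicate number as a block, 19 mitochondrial genes were higher and 18 cytosolic genes were, with 4501 higher and 3400 lower over all genes; the numbers are not known to pair the samples. Leaving out each array gave 664 to 4535 higher and 818 to 3835 lower genes in all, 1 to 19 higher and 0 to 3 lower cytosolic genes, 0 to 23 higher and 0 to 1 lower mitochondrial genes, medians of 0.05 to 0.23 and 0.18 to 0.42, and a difference of 0.13 to 0.22. A lone remaining array was assumed to vary like the other group.

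Of 1125 comparisons of a named gene with an alternative, 832 kept direction and call, 223 lost the call, 21 gained it and 49 changed sign, all of genes that did not pass except Rps20. After quantile normalization the changed signs were Rps23 -0.15, Rps18 -0.20, Rpl11 -0.29, Rpl23 -0.28, Rpl7l1 -0.017, Rps27 -0.18, Rps20 -0.10, Mrpl28 -0.079, Aurkaip1 -0.21, Ict1 -0.14, Gnb2l1 -0.22 and Fau -0.45. After cyclic loess they were Rpl11 -0.24, Rpl23 -0.24, Rpl7l1 -0.040, Rps27 -0.090, Mrpl28 -0.083, Aurkaip1 -0.18, Ict1 -0.18, Gnb2l1 -0.17 and Fau -0.36. Under spike-in scaling they were Rpl11 -0.044, Rpl23 -0.042, Rpl7l1 -0.0004, Aurkaip1 -0.086, Ict1 -0.11 and Fau -0.15. With the percentile over detected probes they were Rpl11 -0.048, Rpl23 -0.045, Rpl7l1 -0.0038, Aurkaip1 -0.090, Ict1 -0.11 and Fau -0.15. With normexp it was Ict1, at 0. With the mean of kept probes they were Rpl23 -0.14, Rpl7l1 -0.065, Rpl22 -0.27, Gadd45gip1 -0.096 and Gnb2l1 -0.11. The change also took both signs when arrays were left out in turn, from -0.031 to 0.17 for Aurkaip1, -0.20 to 0.29 for Ict1, -0.069 to 0.035 for Rpl5, -0.12 to 0.43 for Rpl7l1, -0.58 to 0.078 for Mrps11, -0.017 to 0.24 for Rpl11, -0.018 to 0.42 for Mrpl28, -0.21 to 0.64 for Gadd45gip1 and -0.14 to 0.16 for Fau.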
